A study of Mus musculus with 30 samples.

Results

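The genes described are 10 genes of macrophages and of antigen presentation by MHC class II, out of 12030 genes tested for differential expression and 56951 gene symbols in the tables. They were chosen by symbol: Cd74, H2-Aa, H2-Ab1 and H2-Eb1 for MHC class II, and Adgre1, Cd68, C1qa, C1qb, Csf1r and Mrc1 for macrophages. All 10 passed the filter on low values, a mean over 20 reads and a mean over 0.5 FPKM (fragments per kilobase of exon, scaled to the depth of the library). RNA-seq was performed on gastrocnemius muscle of wild-type male C57BL/6J mice, each housed alone with a running wheel, and 1 library was made from each mouse. In the LD group, 14 mice stayed under a fixed light-dark cycle, and in the ADV group, 16 mice lived under chronic jet lag, with a phase advance of 8 h every 4 days, for 64 weeks in both groups. Before that, all mice had been entrained to the same cycle and then kept in constant darkness, and they were 14 weeks old when the schedules began. The muscles were collected over several hours of a light period that was the same in both groups, and the labels do not give the hour of each mouse. The plantaris was sampled as part of the gastrocnemius, and the RNA came from whole tissue, so in these libraries fewer cells of a type and less RNA per cell cannot be told apart.

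MHC class II molecules carry peptides from engulfed material to the cell surface and present them to CD4+ T cells. Each molecule is a pair of an alpha and a beta chain, and the invariant chain, encoded by Cd74, holds the pair together and blocks its groove until it reaches the endosome. Macrophages, dendritic cells and B cells make these molecules, and their genes share a promoter architecture that the transactivator Ciita depends on. Macrophages reside between muscle fibers, clear debris after injury and support regeneration, and their survival depends on signals through the receptor Csf1r.

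The genes of the MHC class II chains lie within 53466 bases of each other on chromosome 17 of the build GRCm39. H2-Aa, the alpha chain of the I-A molecule, is at chr17:34501718-34506797 on the minus strand with 5 exons. H2-Ab1, the beta chain of I-A, is at chr17:34482183-34488393 and H2-Eb1, the beta chain of I-E, at chr17:34524841-34535648, both on the plus strand and both with 6 exons. Their promoter windows are shown because the levels of these 3 genes moved together between mice, with a Pearson r of 0.980 to 0.986 for their pairs. Each window was read from GRCm39 and runs from 250 bases before to 50 bases from the start of the deposited transcript, 5′ to 3′ on the strand of the gene. The capitals mark GATTGG or its reverse complement, the core of the Y box that the factor NF-Y binds. The window of H2-Aa is chr17:34506748-34507047, that of H2-Ab1 chr17:34481933-34482232 and that of H2-Eb1 chr17:34524591-34524890.
H2-Aa: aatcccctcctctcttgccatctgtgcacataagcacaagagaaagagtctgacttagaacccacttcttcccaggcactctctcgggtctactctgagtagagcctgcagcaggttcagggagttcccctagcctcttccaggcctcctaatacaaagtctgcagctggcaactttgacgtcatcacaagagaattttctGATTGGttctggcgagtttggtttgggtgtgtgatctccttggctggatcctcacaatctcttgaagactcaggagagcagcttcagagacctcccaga
H2-Ab1: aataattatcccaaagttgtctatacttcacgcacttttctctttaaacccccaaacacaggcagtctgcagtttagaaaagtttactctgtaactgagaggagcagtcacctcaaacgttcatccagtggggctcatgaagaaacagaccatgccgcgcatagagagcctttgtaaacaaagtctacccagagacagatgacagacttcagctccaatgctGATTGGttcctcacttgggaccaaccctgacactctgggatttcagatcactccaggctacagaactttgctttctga
H2-Eb1: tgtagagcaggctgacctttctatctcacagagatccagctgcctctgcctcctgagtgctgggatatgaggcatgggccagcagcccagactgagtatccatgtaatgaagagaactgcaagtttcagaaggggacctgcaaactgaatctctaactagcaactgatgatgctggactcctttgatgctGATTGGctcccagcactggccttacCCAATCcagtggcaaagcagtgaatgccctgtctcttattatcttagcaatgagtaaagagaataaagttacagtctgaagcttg

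Counting the first base of the transcript as 0, GATTGG began at position -49 in H2-Aa, at -28 in H2-Ab1 and at -60 in H2-Eb1, each time on the strand of the gene. H2-Eb1 held the core a second time, on the opposite strand at -35. On either strand, 19.6% of the windows of 12029 tested genes held this core, 3 of the 4 windows of MHC class II genes did, and that of Cd74 did not. Of the 6 macrophage genes, 5 held GAGGAA, the core bound by the macrophage factor PU.1, on either strand of the same window, which 26.5% of all windows held, and C1qa did not. These matches describe letters only.

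Cd74 was the most abundant of the 10 genes. Its transcript is at chr18:60936920-60945718, on the plus strand with 9 exons, 12 bases of which it shares with the microRNA gene Mir5107. In the LD group the lowest mouse had 23.6 FPKM, the median was 41.3 and the highest had 151 FPKM. In the ADV group the lowest was 25.2, the median 41.5 and the highest 61.7 FPKM. The medians were nearly equal and all 16 ADV mice lay within the range of the LD mice, whereas the means were 53.2 ± 35.2 FPKM (mean ± SD, n = 14) and 40.6 ± 9.81 FPKM (n = 16). The difference of the means came with LD mice 33 and 30, at 151 and 95.4 FPKM, against 70.7 FPKM in the next LD mouse. The log2 fold change of ADV over LD was -0.42 (SE 0.22, 95% interval -0.87 to 0.03), with an FDR of 0.192 by edgeR's quasi-likelihood test, adjusted over all genes tested.

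The chains of I-A and I-E had the same pattern at lower levels. H2-Aa ranged from 11.6 to 84.8 FPKM with a median of 21.8 in the LD group, and from 12.9 to 35.1 FPKM with a median of 20.6 in the ADV group. H2-Ab1 ranged from 8.29 to 60.9 FPKM (median 14.8) under LD and from 8.91 to 29.3 FPKM (median 16.4) under ADV. H2-Eb1 ranged from 6.03 to 44.3 FPKM (median 11) under LD and from 6.54 to 18.3 FPKM (median 10.9) under ADV. LD mice 33 and 30 were the highest and the next highest LD mouse for each chain, LD mouse 21 was the lowest, and the groups overlapped in full. The log2 fold change was -0.50 (SE 0.23) for H2-Aa, -0.40 (SE 0.25) for H2-Ab1 and -0.45 (SE 0.24) for H2-Eb1, and the edgeR FDRs were 0.144, 0.275 and 0.208. H2-Eb1 is transcribed although C57BL/6 mice carry a defective H2-Ea, the alpha chain that would pair with it, and H2-Ea had 0 reads in 30 of 30 libraries. The lncRNA gene Gm20513 on the other strand shares 130 bases, 7.7% of the exons, with H2-Eb1.

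**Figure D1:**
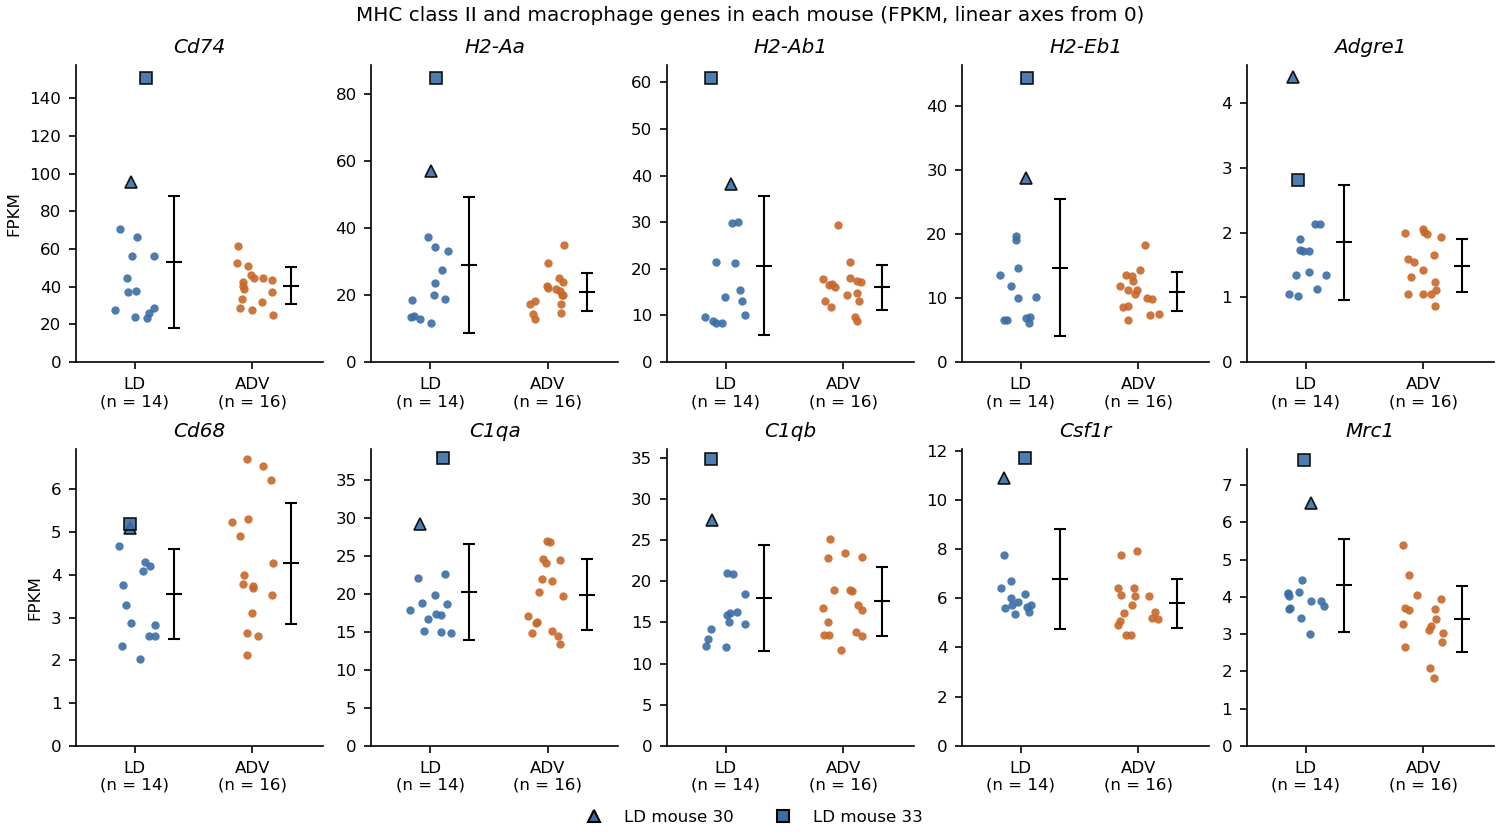
FPKM of the 10 genes in each mouse, 1 panel per gene with linear axes from 0, for the LD group (blue, n = 14) and the ADV group (orange, n = 16). Black bars give the mean ± SD, the triangle is LD mouse 30 and the square LD mouse 33, which lie above the other LD mice in every panel, for Cd74 at 95.4 and 151 FPKM.

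Between LD mice the macrophage genes varied less than the MHC class II genes, with an SD of log2 CPM (counts scaled to the library size with TMM factors) of 0.368 to 0.577 against 0.825 to 0.919. Between ADV mice the values overlapped, from 0.209 for Csf1r to 0.458 for Cd68, against 0.332 to 0.391 for the MHC class II genes. C1qa and C1qb, chains of the complement starter C1q that tissue macrophages secrete, are neighbours on the minus strand of chromosome 4, at chr4:136623228-136626114 and chr4:136607440-136613498. C1qa ranged from 14.8 to 37.8 FPKM (median 18.3) under LD and from 13.4 to 26.9 FPKM (median 19.9) under ADV. C1qb ranged from 12.0 to 34.9 FPKM (median 16.0) under LD and from 11.6 to 25.2 FPKM (median 16.9) under ADV. Their log2 fold changes were the closest to 0 of the 10 genes, -0.05 (SE 0.13, 95% interval -0.31 to 0.20, edgeR FDR 0.807) for C1qa and -0.06 (SE 0.14, 95% interval -0.34 to 0.22, edgeR FDR 0.799) for C1qb. The interval of C1qa covers folds from 0.81 to 1.15.

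Mrc1, the mannose receptor CD206 of tissue-resident macrophages, came nearest to the threshold. It is at chr2:14234203-14336868 on the plus strand, with 30 exons. The LD mice ranged from 3.00 to 7.67 FPKM with a median of 3.96, and the ADV mice from 1.81 to 5.39 FPKM with a median of 3.34. Only 3 of 16 ADV mice were above the LD median, and 12 of 16 lay within the LD range. The log2 fold change was -0.37 (SE 0.13, edgeR FDR 0.0548). DESeq2 gave an FDR of 0.0357 for Mrc1 with the same log2 fold change of -0.37, and edgeR on genes with a mean over 100 reads gave 0.0498. Leaving out LD mouse 22, LD mouse 36, ADV mouse 27 or ADV mouse 28 also brought Mrc1 under an FDR of 0.05, within a range of 0.0299 to 0.109 over the 30 libraries left out in turn.

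Csf1r, the receptor for the growth factors Csf1 and Il34, ranged from 5.34 to 11.7 FPKM (median 5.94) under LD and from 4.50 to 7.90 FPKM (median 5.58) under ADV. Of the ADV mice, 10 of 16 lay within the LD range and the others below it. Its log2 fold change was -0.25 (SE 0.11, edgeR FDR 0.114). Csf1r is at chr18:61238924-61265221 on the plus strand with 21 exons. In the GENCODE annotation, which gives it 6049 exon bases, Hmgxb3 on the other strand covers 21.8% of them. The deposited values use a length of 4660 bases for Csf1r, so the overlap with the counted exons may be smaller and is not given here. Whether strand was used in the counting is not given in the sources used here either. Whether reads of Hmgxb3 were counted with Csf1r is therefore not known.

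Adgre1, which encodes the surface receptor F4/80, is at chr17:57665691-57790527 on the plus strand with 22 exons. It had the lowest level of the 10 genes, from 1.02 to 4.41 FPKM (median 1.71) under LD and from 0.870 to 2.06 FPKM (median 1.48) under ADV. LD mouse 30 was the highest for Adgre1, at 4.41 FPKM, with LD mouse 33 next at 2.82 FPKM. The log2 fold change was -0.34 (SE 0.17, edgeR FDR 0.189), and -0.18 without LD mouse 30.

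Cd68, a glycoprotein of macrophage lysosomes, at chr11:69555197-69556888 on the minus strand with 6 exons, was the only gene of the 10 with a log2 fold change above 0. It ranged from 2.04 to 5.18 FPKM (median 3.53) under LD and from 2.13 to 6.71 FPKM (median 3.88) under ADV. Of the ADV mice, 11 of 16 lay within the LD range and the others above it. The log2 fold change was 0.24 (SE 0.16, 95% interval -0.08 to 0.56), with an edgeR FDR of 0.307. Cd68 rested on 49.0 to 157.5 reads per library and Adgre1 on 69.5 to 316.5, against 799 to 5890.5 for Cd74.

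Across the 10 genes, 0 passed an FDR of 0.05 by edgeR in either direction, against 10.8% of the 12030 genes tested, and 5.2% that passed in the direction of a lower level in ADV mice. At an unadjusted p under 0.05, 3 of the 10, H2-Aa (p = 0.039), Csf1r (p = 0.0257) and Mrc1 (p = 0.00666), were lower in the ADV group, while in either direction 30.1% of all genes had such a p. DESeq2 called 1 gene, Mrc1, and limma on log2(FPKM + 0.1) or log2(FPKM + 1) and the Wilcoxon rank-sum test on FPKM called 0. Of the 10 log2 fold changes 9 were below 0, against 49.2% of all genes tested. Medians of the log2 fold change were -0.43 for the MHC class II genes and -0.16 for the macrophage genes, and 0.00 over all genes tested.

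Most of these differences were smaller without LD mice 30 and 33. These mice were the 2 highest LD mice for each of the 10 genes, and they were noticed for these values, so leaving them out is a description and no independent test. With both mice kept, the MHC class II median also depended on the setting of the fit, from -0.49 to 0.21. Without them the median log2 fold change was -0.03 for the MHC class II genes and 0.03 for the macrophage genes, and 6 of 10 were below 0. Cd74 was then at -0.04 (edgeR FDR 0.891), H2-Aa -0.08, H2-Ab1 0.01 and H2-Eb1 -0.01. Mrc1 had -0.19 (edgeR FDR 0.217), Csf1r -0.07 and Adgre1 -0.08, while Cd68 had 0.36 (edgeR FDR 0.135). Without LD mouse 33 alone, Cd74 had -0.19, H2-Aa -0.25, H2-Ab1 -0.15 and H2-Eb1 -0.18. The depth of both libraries, 20465224 and 25500256 exon read pairs, lay within the range of all 30 libraries, from 18875468.5 to 28512674, and the share of read pairs on exons was 91.06% and 90.91%, the latter the lowest of the 30.

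The clock genes differed between the groups at collection. All 7 listed genes that Bmal1 drives, among them Dbp and Nr1d1, were lower in the ADV group, and 3 of 5 listed genes of the opposite phase, Bmal1, Nfil3 and Cry1, were higher. Within the groups, the MHC class II genes had a Pearson r with the score of these clock genes of 0.38 over the LD mice and 0.05 over the ADV mice. For the macrophage genes r was 0.42 over the LD mice and -0.04 over the ADV mice. When that score was added to the model, the log2 fold changes were 0.14 for Cd74, 0.23 for H2-Aa, 0.21 for H2-Ab1 and 0.21 for H2-Eb1, and -0.17 for Mrc1. In that fit 0 of the 10 genes and 0 of all 12030 passed by edgeR, and 1 and 1427 had an unadjusted p under 0.05. Most genes of the score differ between the groups, so this fit cannot cleanly separate the score from the group. No conclusion is drawn from its changes of sign or its lack of calls. The part of collection time in these values was not tested.

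**Figure D2:**
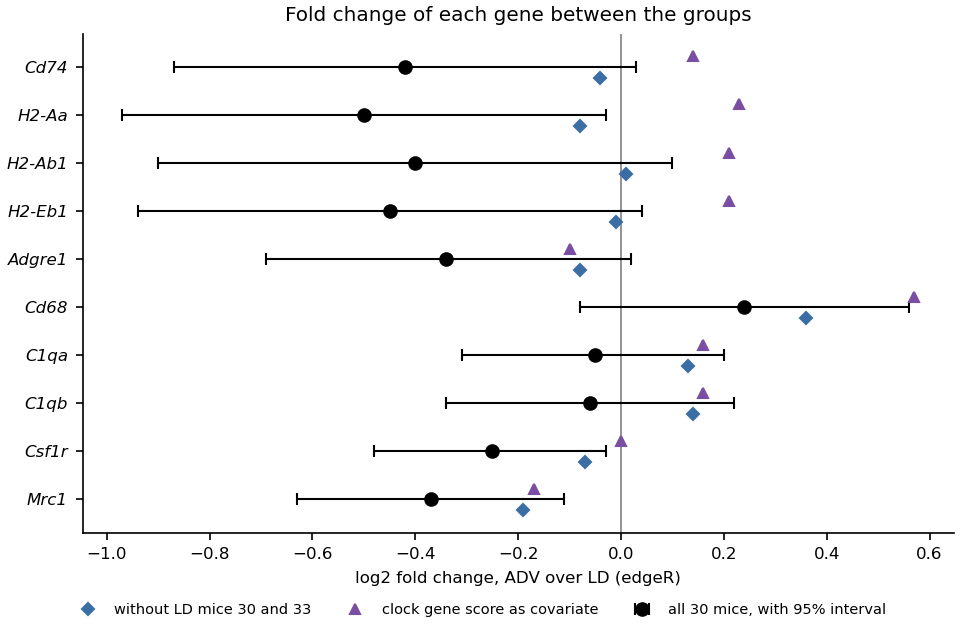
Log2 fold change of each gene, ADV over LD, from edgeR. Black points and bars give the value and its 95% interval over all 30 mice, diamonds the value without LD mice 30 and 33, and triangles the value after adding the clock gene score to the model. Of the black points, 9 of 10 lie below 0, and the diamonds of the MHC class II genes lie between -0.08 and 0.01.

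The MHC class II genes varied more between LD mice than between ADV mice. The SD of log2 CPM was 0.825 in the LD group and 0.332 in the ADV group for Cd74, 0.861 and 0.356 for H2-Aa, 0.919 and 0.391 for H2-Ab1, and 0.892 and 0.373 for H2-Eb1. In the LD group these were among the widest of all genes, at percentiles of 99.0 to 99.4, and in the ADV group they lay at percentiles of 82.1 to 88.9. A two-sided permutation test of the absolute deviations from the group median, added after the data were seen, gave p = 0.00195 for Cd74, 0.00396 for H2-Aa, 0.00364 for H2-Ab1 and 0.00454 for H2-Eb1, and a p under 0.05 in the direction of a wider LD group for 2.26% of all genes. Adjusted over all genes tested, p was 0.695 for each of these 4 genes, and the test called 0 genes in either direction, with an unadjusted p under 0.05 for 272 genes wider in the LD group and 497 wider in the ADV group. Without LD mice 30 and 33 the SD in the LD group was still 0.583 for Cd74, 0.589 for H2-Aa, 0.686 for H2-Ab1 and 0.616 for H2-Eb1. For the 6 macrophage genes the unadjusted p of the spread lay between 0.382 and 0.957, and without LD mice 30 and 33 the SD in the LD group was below that in the ADV group for each of them.

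Within a mouse, the levels of the MHC class II genes kept nearly constant ratios. On the FPKM scale, which is per length of exon, Cd74 was above H2-Aa in 30 of 30 mice, with a ratio from 1.49 to 2.15 and a median of 1.93. The ratio of H2-Aa to H2-Ab1 ran from 1.15 to 1.81, and that of H2-Ab1 to H2-Eb1 from 1.20 to 1.62. C1qa and C1qb, whose proteins assemble in equal numbers, had a ratio from 0.904 to 1.33. Other ratios were looser, both within the macrophage genes, where Cd68 to Csf1r ran from 0.349 to 1.23 and Csf1r to Mrc1 from 1.01 to 2.84, and between the families, where H2-Aa to C1qa ran from 0.675 to 2.24 and Cd74 to Adgre1 from 13.4 to 53.5.

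By mean FPKM, the order was Cd74, H2-Aa, C1qa, H2-Ab1, C1qb, H2-Eb1, Csf1r, Cd68, Mrc1 and Adgre1. The levels of H2-Aa and C1qa were in this order in 16 of 30 mice and those of Cd68 and Mrc1 in 17 of 30, near an even split. C1qa was above H2-Ab1 in 23 of 30 mice. H2-Ab1 was above C1qb in 8 of 30 mice, with a median ratio of 0.946, so most mice had the reverse of the order by mean. C1qb was above H2-Eb1, and Csf1r above Cd68, in 28 of 30 mice. H2-Eb1 was above Csf1r and Mrc1 above Adgre1 in 30 of 30 mice. Against all genes tested, Cd74 lay at the percentile of 92.4 by mean FPKM and Adgre1 at that of 22.4.

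Between mice, the 4 MHC class II genes moved as a unit. Pearson r of their log2 CPM, taken as deviations from the group mean over 30 mice, was 0.980 to 0.990 for the 6 pairs, and Spearman rho was 0.975 to 0.985. For each of these 6 pairs the permutation p was 1e-05, the smallest that 100000 draws can give, and 2.14e-05 after Benjamini-Hochberg adjustment over the 45 pairs of the 10 genes. The median r was 0.991 over the LD mice, 0.958 over the ADV mice and 0.972 without LD mice 30 and 33, which were also the 2 mice farthest from the median for each of these pairs.

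Macrophage genes moved together less closely. The median r of their 15 pairs was 0.732, from 0.532 for Cd68 and Mrc1 to 0.948 for C1qa and C1qb. C1qa and C1qb kept an r of 0.901 without LD mice 30 and 33, and had 0.951 over the ADV mice. Csf1r and Mrc1 had an r of 0.762 (rho 0.814), which was 0.541 without LD mice 30 and 33. The median of the 15 pairs was 0.822 under LD and 0.616 in ADV mice, and 0.524 without LD mice 30 and 33, so more of it than of the MHC class II pairs rested on these mice.

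Between the families, the median r of 24 pairs was 0.751, from 0.469 for H2-Ab1 and Cd68 to 0.868 for Cd74 and C1qb. It was 0.846 over LD mice, 0.630 over ADV mice and 0.575 without LD mice 30 and 33, and the difference between the groups was not tested. All 45 pairs had an adjusted permutation p under 0.05 over 30 mice, with 0.00776 as the largest, for H2-Ab1 and Cd68. The share of other gene pairs under this threshold was not computed, so the count does not set these genes apart from others. H2-Ab1 and Cd68 had an r of 0.469 over 30 mice (rho 0.523), which was 0.199 over the ADV mice and 0.302 without LD mice 30 and 33. Mrc1 and Cd74 had an r of 0.633 (rho 0.607), which was 0.374 over the ADV mice and 0.338 without LD mice 30 and 33. The r of both pairs thus rested in part on these mice. C1qb and Cd74, in contrast, had 0.797 over the ADV mice and 0.747 without LD mice 30 and 33.

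**Figure D3:**
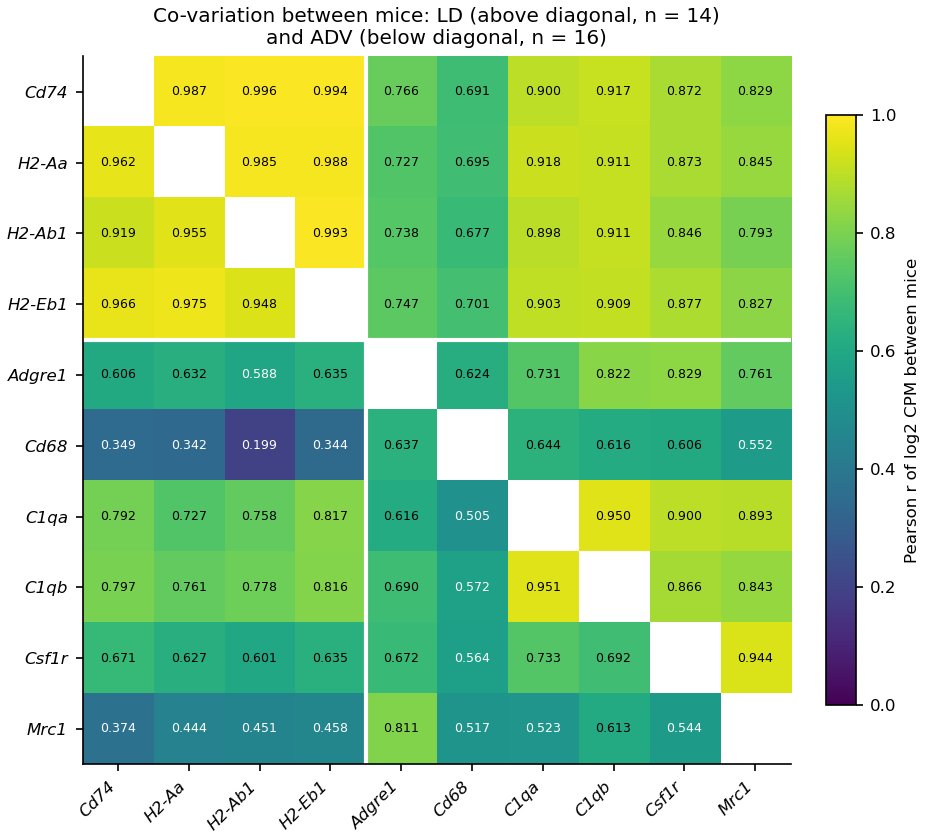
Pearson r between mice of log2 CPM for each pair of the 10 genes, over LD mice above the diagonal (n = 14) and over ADV mice below it (n = 16), on a colour scale from 0 to 1. The block of the 4 MHC class II genes at the upper left holds r from 0.919 to 0.996, and the lowest value is 0.199 for H2-Ab1 and Cd68 over ADV mice.

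The mean standardised deviation of the 4 MHC class II genes, taken as a score of each mouse, was 2.926 in LD mouse 33 and 1.859 in LD mouse 30. The other mice lay between -1.6 and 1.198. The score of the 6 macrophage genes was 2.454 and 2.034 in the same mice, against a highest value of 1.182 in any other mouse. Pearson r between both scores was 0.84 over 30 mice (rho 0.81), 0.92 over LD mice, 0.70 over ADV mice and 0.71 without LD mice 30 and 33, given as a description, since both scores come from the same libraries. ADV mouse 35, the highest ADV mouse for each of the 4 MHC class II genes, had a macrophage score of 0.546, below that of ADV mice 27, 24, 28 and 23. ADV mouse 27, the highest of its group by the macrophage score, had an MHC class II score of 0.107, whereas ADV mouse 23 was high on both, at 0.713 for MHC class II and 0.612 for macrophages.

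**Figure D4:**
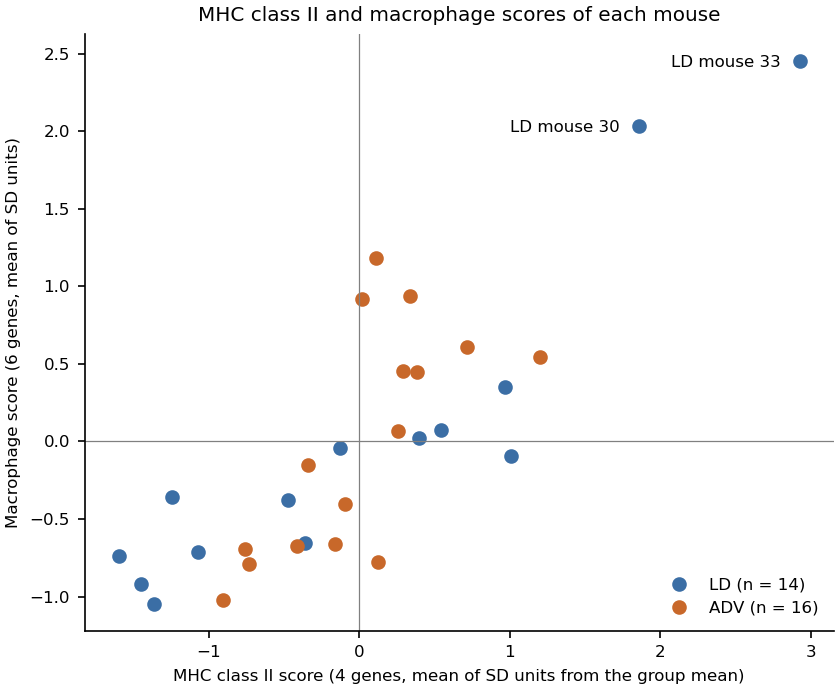
MHC class II score (horizontal) and macrophage score (vertical) of each mouse, in SD units as deviations from its group mean, with LD mice in blue (n = 14) and ADV mice in orange (n = 16). LD mice 33 and 30 lie at the upper right, at 2.926 and 1.859 on the horizontal axis, apart from the other 28 mice.

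Genes with the pattern most like the MHC class II score, by Spearman rho over 30 mice and the 10 genes left out, were Pld4 (0.90), Mir5107 (0.89), H2-DMa (0.89), Tmem176b (0.88), Unc93b1 (0.85), Tmem176a (0.84), C1ra (0.82) and Clec10a (0.81). Mir5107 lies within Cd74 on the same strand, so both may share reads. H2-DMa encodes a chain of the molecule that exchanges the invariant chain remnant for peptide. Unc93b1 carries nucleotide-sensing Toll-like receptors to endosomes, and Clec10a is a lectin of macrophages and dendritic cells. Over LD and ADV mice alone, rho was 0.95 and 0.80 for Pld4, and 0.81 and 0.90 for Clec10a.

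Most like the macrophage score were Laptm5 (0.93), C4b (0.92), Slc11a1 (0.90), C1qc (0.89), H2-DMb1 (0.89), Gm49368 (0.89), Unc93b1 (0.89) and Mgl2 (0.88). C1qc is the third chain of C1q, Slc11a1 a metal transporter of phagosomes and Laptm5 a lysosomal protein of blood-derived cells. Gm49368 overlaps Itgam over 55808 bases, so both may share reads. Unc93b1 was the only gene among the 8 most like each score, but further down the rankings more genes were shared. Pld4 had a rho of 0.85 with the macrophage score, and C1qc and H2-DMb1 had 0.79 each with the MHC class II score.

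The other genes of the MHC class II pathway gave no call by edgeR. Of 19 listed genes, 9 passed the filter on low values, and 0 of the 9 passed the test, with a median log2 fold change of -0.02, while 1 had an unadjusted p under 0.05 and 1 passed with DESeq2. That gene, named after its values were seen, was Rfx5, a factor of the complex that binds MHC class II promoters, at 1.84 ± 0.381 FPKM under LD and 1.51 ± 0.312 FPKM under ADV (log2 fold change -0.30, edgeR FDR 0.0502). The most abundant were Lgmn, a protease of the endosome, at 16.2 ± 1.61 FPKM under LD and 16.2 ± 3.48 FPKM under ADV, and Ctsl at 12.7 ± 1.15 and 12.7 ± 1.59 FPKM. Ctss, the protease that trims the invariant chain in antigen-presenting cells, was at 6.82 ± 2.76 and 5.90 ± 2.27 FPKM (log2 fold change -0.24, edgeR FDR 0.367). Ciita, picked for its role after its values were seen, was under the filter, at 0.225 ± 0.128 FPKM under LD and 0.175 ± 0.0794 FPKM under ADV, and at 0.517 FPKM in LD mouse 33. Of the genes of interferon gamma signalling, the main inducer of MHC class II, 0 of 6 tested passed by edgeR, 2 had an unadjusted p under 0.05, and DESeq2 called 1, the kinase Jak2, also named after its values were seen (log2 fold change -0.18, edgeR FDR 0.0619). Jak1 had a log2 fold change of -0.09, Ifngr1 -0.04 and Ifngr2 0.12, and Ifng had 0 reads in 25 of 30 libraries. Between mice, the score of the 6 tested genes had a Pearson r of 0.61 with the MHC class II score. It was 0.83 over LD mice, 0.34 over ADV mice and 0.52 without LD mice 30 and 33. For the 9 tested pathway genes r was 0.65, and 0.50 without these mice.

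Mif, a cytokine that binds Cd74 as its receptor, was higher in the ADV group. It was at 46.4 ± 3.69 FPKM under LD and 54.2 ± 7.41 FPKM under ADV, and its log2 fold change was 0.21 (SE 0.05, edgeR FDR 0.0150). In LD mice 30 and 33 Mif was at 43.4 and 45.9 FPKM, within the range of the other LD mice. Removing each library's trend with GC content moved the log2 fold change of Mif to 0.08 and its edgeR FDR to 0.321. The other 3 genes of this list, Ddt, Cd44 and Cxcr4, did not pass.

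The complement list followed the macrophage score most closely of the lists, with a Pearson r of 0.94. Its 10 genes, C1qa and C1qb not among them, were all tested, and the median log2 fold change was -0.17. It was below 0 for 10 of 10, against 49.2% of all genes tested. The test called 2 of 10, both lower in ADV mice, against 5.2% of all genes in that direction. The list moved with the macrophage score, so the signs of its genes are not independent. C3ar1, the receptor of the fragment C3a, was at 0.707 ± 0.312 FPKM under LD and 0.480 ± 0.165 FPKM under ADV (log2 fold change -0.59, SE 0.18, edgeR FDR 0.0322). It was at 1.36 and 1.43 FPKM in LD mice 30 and 33, and its call was lost without both (edgeR FDR 0.139), without LD mouse 30 (0.0661), LD mouse 33 (0.0654) or ADV mouse 25 (0.0539) alone, with the GC trend removed (0.0805) and without the filter on low genes (0.064). It did not pass with limma (FDR 0.0519 and 0.0647 with pseudocounts of 0.1 and 1) or the Wilcoxon test (0.0639), and did with DESeq2 (0.0158). The summed level of the list was 230 FPKM in LD mouse 30 and 303 in LD mouse 33, against a median of 159 under LD and 141 in ADV mice.

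Other macrophage lists gave no call, by edgeR or by DESeq2. Of 16 genes of resident macrophages, 0 of 16 passed and 3 had an unadjusted p under 0.05, against 10.8% and 30.1% of all genes tested. The log2 fold change was below 0 for 14, against 49.2% of all genes tested, and its median was -0.13. Gas6 had 0.10, Cbr2 -0.12 and Maf -0.18. The 3 genes with an unadjusted p under 0.05 did not share a direction. Cd163 (log2 fold change -0.43, edgeR FDR 0.0781) and F13a1 (-0.33, edgeR FDR 0.0699) were lower in the ADV group. Both are named after their values were seen. Gas6 (edgeR FDR 0.157) was higher. Of 10 tested genes of macrophages in general, 0 passed, 2 had an unadjusted p under 0.05 and the median was -0.16. The most abundant were the lysosomal proteases Ctsd (log2 fold change 0.08) and Ctsb (0.05), which other cells also make, and the lysozyme Lyz2 (-0.29). Ctsd was at 245 and 256 FPKM in LD mice 30 and 33, below the LD mean of 267, and Ctsb at 63.0 and 61.2 FPKM, near the LD mean of 62.2. Lyz2, in contrast, was at 90.8 and 97.7 FPKM in these mice and at most 61.3 in any other LD mouse. Of 8 tested genes around Csf1r, 0 passed and 0 had an unadjusted p under 0.05, and Tyrobp had 0.03, Fcer1g -0.19 and Laptm5 -0.13. Scores of these lists followed the macrophage score closely, with a Pearson r of 0.92 for resident macrophages, 0.90 for general macrophage genes and 0.91 for the genes around Csf1r.

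Of the markers of dendritic cells, which also make MHC class II, 2 were at the level of Adgre1. Cd209a was at 1.63 ± 0.644 FPKM under LD and 1.25 ± 0.349 FPKM under ADV, and Zbtb46 at 1.58 ± 0.273 and 1.72 ± 0.327 FPKM. In LD mice 30 and 33 Cd209a was at 1.23 and 1.58 FPKM and Zbtb46 at 1.40 and 1.52 FPKM, within the range of the other LD mice. The other markers had a mean of 0.26 FPKM or less, with Batf3 the highest, and the defining markers Flt3 and Clec9a were at 0.0646 and 0.112 FPKM under LD. At these low levels, Clec9a and Itgax were at 0.318 and 0.197 FPKM in LD mouse 33, against up to 0.206 and 0.162 FPKM in other LD mice. In LD mouse 30 they were at 0.088 and 0.073 FPKM. Flt3, Xcr1, Batf3 and Ccr7 were not above the other LD mice in either mouse. The summed level of the 8 markers ran from 2.42 to 5.82 FPKM under LD and from 2.11 to 4.42 FPKM under ADV, and 0 of 2 tested passed by edgeR or DESeq2, 1 of them, Cd209a, with an unadjusted p under 0.05. The score of the tested dendritic markers, Zbtb46 and Cd209a, had a Pearson r of 0.09 with the MHC class II score. The markers under the filter, the defining Flt3 and Clec9a among them, are not in that score. From which cells the reads of Zbtb46 and Cd209a came, and the part of dendritic cells, was not tested. Among B cell markers, leaving out Igkc, Ighm and Jchain, the means were 0.273 FPKM or less, with Cd79b the highest, and Ms4a1 was at 0.0193 FPKM under LD and 0.0246 FPKM under ADV.

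Of the immunoglobulin genes of the B and plasma cell list, Igkc was highest in LD mice 30 and 33, at 61.5 and 39.0 FPKM, against up to 27 FPKM in another LD mouse and up to 8.82 FPKM in an ADV mouse. Ighm was highest in LD mouse 30, at 268 FPKM, against up to 203 FPKM in another LD mouse, while LD mouse 33 was at 142 FPKM, near the LD median of 138. Both passed the test, with log2 fold changes of -2.07 for Igkc (edgeR FDR 0.0298) and -0.47 for Ighm (edgeR FDR 0.0372). Without LD mice 30 and 33 these were -0.81 for Igkc and -0.36 for Ighm, and neither passed. Igkc was also lost without LD mouse 30 (edgeR FDR 0.0938) or LD mouse 33 (0.0625) alone, and Ighm without LD mouse 23, 27, 28, 30, 35 or 36 or ADV mouse 24, 25, 33 or 36, with edgeR FDRs of 0.0502 to 0.0774. Neither passed with limma or the Wilcoxon test. The summed level of the 10 listed genes ran from 84.1 to 334 FPKM under LD and from 67.5 to 161 FPKM under ADV, most of it Ighm. The r between Igkc with Ighm and the MHC class II score was 0.74 over LD mice and 0.09 over ADV mice, and the part of plasma cells in the levels of the 10 genes was not tested.

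Markers of T and NK cells summed to 0.343 to 2.88 FPKM under LD and 0.211 to 2.06 FPKM under ADV, and 0 of 10 passed the filter. Monocyte markers summed to 16.2 to 30.9 FPKM and 10.3 to 25.7 FPKM, nearly all of it Fn1, which fibroblasts also make, and 0 of 1 tested passed, with an unadjusted p of 0.0235 for Fn1. Of neutrophil and mast cell markers 0 of 3 tested passed, with Mcpt4 the most abundant, and Ly6g had 0 reads in all libraries. Of blood genes 0 of 5 passed by edgeR or DESeq2, 2 had an unadjusted p under 0.05, with a median log2 fold change of 0.17.

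Among the remaining cells of the muscle, 2 of 12 endothelial genes were higher in the ADV group, Pecam1 (log2 fold change 0.16, edgeR FDR 0.0323) and Emcn (0.27, edgeR FDR 0.00945). The call of Pecam1 was lost with the GC trend removed (edgeR FDR 0.0604), without the filter on low genes (0.0779), and without LD mouse 28 (0.0591), LD mouse 34 (0.0515) or ADV mouse 24 (0.0549). Of 8 fibroblast genes, Pdgfra was lower (-0.24, edgeR FDR 0.0194, and 0.0505 without LD mice 30 and 33), and of 6 adipocyte genes, Fabp4 was higher (0.36, edgeR FDR 0.0231). Of 5 tested Schwann cell genes 0 passed by edgeR and 3 by DESeq2, and 4 had an unadjusted p under 0.05. Of 9 muscle fiber genes 0 passed by either and 1 had an unadjusted p under 0.05, and the defining muscle genes Acta1 and Tnnt3 were at 16900 and 19600 FPKM in LD mice. The fibroblast score had a Pearson r of 0.63 with the MHC class II score and 0.72 with the macrophage score, and the adipocyte score 0.53 and 0.55. The endothelial score had -0.28 and -0.08. The part of these cells in the levels of the 10 genes was not tested.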

How the data were processed

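Poly(A) RNA of 30 gastrocnemius muscles was sequenced as stranded paired-end reads. The authors trimmed reads with Trimmomatic, mapped them to GRCm39/mm39 with STAR 2.7.10a, removed reads of mapping quality under 10 and counted them over exons of 57186 UCSC known canonical transcripts with HOMER 4.11, per the study's methods and the submitters' processing notes. The deposited estimated counts give each mate 0.5 reads and are raw, with 18875468.5 to 28512674 exon read pairs per library. The deposited FPKM values are the authors' counts scaled to exon length and library depth. Whether the counting used strand is not given in the sources used here.

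Counts were rounded and 1 row was kept per symbol, the longest with a mean over 20 reads, and the 12030 of these symbols over 20 reads and 0.5 FPKM on average were tested. LD (n = 14) and ADV (n = 16) were compared with edgeR 4.0.16 (TMM, quasi-likelihood test, Benjamini-Hochberg over all genes) in R 4.3.3, without covariates. Alternatives used DESeq2 1.42.0, limma 3.58.1, other scalings and filters, a replicate block, a clock gene score, a GC trend and each library left out. Correlations between mice used log2 CPM as deviations from the group mean, with 100000 permutations within groups. Promoter windows were read from GRCm39. The scripts were tested on simulated data.

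The 10 genes and the gene lists were chosen with earlier results of these data known. Named are the 10 genes, the genes of each list with an FDR under 0.05 or otherwise up to 3 of the highest mean FPKM, the 8 genes most like each score, and H2-Ea. Each library came from its own mouse, so p-values measure the spread between mice. The precision of low genes is limited by their counts. Values of some single genes of the lists and rankings are not reported here.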

Additional observations from a re-analysis of the deposited data

How the results depend on the processing

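Over the alternatives tried, the number of the 10 genes higher in the ADV group with an FDR under 0.05 was 0 in each, and the number lower was 0 except for 1, Mrc1, with DESeq2 and with genes of a mean over 100 reads, and 0 to 1 over the libraries left out in turn. Log2 fold changes below 0 turned above 0 after adding the clock gene score to the model for Cd74 (0.14), H2-Aa (0.23), H2-Ab1 (0.21), H2-Eb1 (0.21), C1qa (0.16), C1qb (0.16), Csf1r (0.00) and Igkc (0.47). That score itself differs between the groups and cannot be cleanly separated from them. The log2 ratio of medians beside the Wilcoxon test was above 0 for Cd74 (0.01), H2-Ab1 (0.15), C1qa (0.12) and C1qb (0.07), and limma on log2(FPKM + 0.1) gave 0.00 for C1qb. Without LD mice 30 and 33, an alternative chosen after seeing the data, the values above 0 were H2-Ab1 (0.01), C1qa (0.13) and C1qb (0.14), and with each library left out in turn C1qa ran from -0.09 to 0.06 and C1qb from -0.10 to 0.06, both highest without LD mouse 33. The cause was not tested. The median r of MHC class II pairs moved to 0.958 in ADV mice alone and 0.972 without the 2 mice farthest from the median, which were LD mice 30 and 33, that of macrophage pairs to 0.524 without these mice, and that between the families to 0.630 in ADV mice alone and 0.575 without these mice. With each library left out in turn the medians ran from 0.978 to 0.987, from 0.649 to 0.791 and from 0.688 to 0.794.

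Label numbers are shared by 28 libraries. Same-numbered mice did not deviate together, with a correlation over 0.1 in 6 of 14 pairs, from -0.26 to 0.43, and 3 of 14 LD mice correlated best with their own number, so the numbers were not taken as pairs. With a replicate block the number of the 10 genes past the threshold was 0 in both directions, and the log2 fold change was -0.20 for Cd74 and -0.33 for Mrc1. With the block the calls of Mif (FDR 0.072), C3ar1 (0.077), Ighm (0.105), Igkc (0.287), Pecam1 (0.0563), Emcn (0.0642) and Pdgfra (0.0643) were lost, and in the same 28 libraries without it those of C3ar1, Ighm, Igkc, Pecam1 and Fabp4. Over all genes the block gave 287 higher and 207 lower calls, against 331 and 285 in the same 28 libraries without it and 675 and 626 in all 30. Calls over all genes also fell by over 1.5 times without a filter (375 higher, 254 lower), with the GC trend removed (292 and 308), without LD mice 30 and 33 (423 and 361) and with the clock gene score (0 and 0). The split of calls was 775 higher and 466 lower when scaled to library size alone, and 860 and 448 with limma on log2(FPKM + 0.1).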

Other observations

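At the other end of the ranking by likeness, picked after their values were seen, genes with some of the lowest Spearman rho to the MHC class II score were Ptcd2 (-0.80), Got2 (-0.74), Cs (-0.74) and Mtif2 (-0.73). Cs is the first enzyme of the citric acid cycle and Got2 a mitochondrial aminotransferase. For Cs rho was -0.89 over LD mice and -0.43 over ADV mice. To the macrophage score they were Atp5mk (-0.76), Egln1 (-0.75), Chchd3 (-0.72) and Cdv3 (-0.72). Atp5mk is a subunit of the mitochondrial ATP synthase. These values are descriptions over 30 mice of shares of the same libraries.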
